A study of Homo sapiens with 21 samples.

Results

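The genes described here are the collagens, laminins, integrins and lysyl oxidases measured in SH-SY5Y, a human neuroblastoma cell line, that was either wild type (WT) or carried a mutated APP, V717F, in the gene of the amyloid precursor protein. They were chosen by symbol: every gene named as a collagen chain, a laminin chain, an integrin subunit, LOX or LOXL1 to LOXL4 that had a probe set with that symbol alone. This gave 81 of the 18132 genes tested, of which 43 were collagens, 10 laminins, 23 integrins (16 alpha and 7 beta subunits) and 5 lysyl oxidases. COL17A1, LAMA3 and ITGB6 had no probe set of their own and were not analysed here. Expression was measured on 21 Affymetrix PrimeView arrays, 3 for each of 7 groups. The WT groups received the vehicle, AG494, NOSCA or PALBO and are called WT_DMSO, WT_AG494, WT_NOSCA and WT_PALBO. The APP groups received the vehicle, AG494 or NOSCA and are called APP_DMSO, APP_AG494 and APP_NOSCA, and no APP group with PALBO was analysed here. All cells were first differentiated over 3 to 4 days, with retinoic acid at 10 µM and brain-derived neurotrophic factor at 50 ng/mL in the medium. A compound, or its vehicle at 0.1% DMSO, was then added for 72 h. AG494 is known as a tyrphostin, a class of tyrosine kinase inhibitors. The labels give no doses, do not spell out NOSCA and PALBO, and do not say how the mutated line was made or whether it was 1 clone.

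Collagens and laminins build the extracellular matrix. Type IV collagen and the laminins, each a trimer of an alpha, a beta and a gamma chain, form the networks of the basement membrane, while fibrillar collagens such as type I form fibres that lysyl oxidases crosslink. Integrins are pairs of an alpha and a beta subunit that span the cell membrane and bind these proteins, and the alpha subunit largely sets which ligand is bound. In neural cells they carry adhesion and the outgrowth of processes on laminin.

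Type IV collagen genes lie in head-to-head pairs, and the largest genotype differences among the 81 genes fell on 1 such pair. COL4A1 and COL4A2 start on opposite strands of chromosome 13 with 126 bases between their starts (RefSeq, GRCh38.p14). The starts of COL4A3 and COL4A4 on chromosome 2 are 418 bases apart, and those of COL4A5 and COL4A6 on chromosome X are 379 bases apart. The sequences below are the whole stretch between COL4A1 and COL4A2 (chr13:110307158-110307283, read on the plus strand, in the direction of COL4A2) and, for the other pairs, the 126 bases before each start, read in the direction of the gene. They are shown because the first stretch lies upstream of both genes that fell, and the others lie upstream of the family members that did not pass the test. Capitals mark CCAAT (the CCAAT box) and GGGCGG or its reverse complement (the GC box).
COL4A1-COL4A2: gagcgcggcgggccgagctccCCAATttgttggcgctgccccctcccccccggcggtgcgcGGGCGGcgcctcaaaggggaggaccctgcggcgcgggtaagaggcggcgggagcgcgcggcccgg
COL4A3: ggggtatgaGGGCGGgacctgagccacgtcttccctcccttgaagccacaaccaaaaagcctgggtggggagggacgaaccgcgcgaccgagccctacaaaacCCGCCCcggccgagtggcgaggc
COL4A4: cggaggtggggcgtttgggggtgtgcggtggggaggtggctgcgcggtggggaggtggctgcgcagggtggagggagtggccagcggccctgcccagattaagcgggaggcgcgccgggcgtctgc
COL4A5: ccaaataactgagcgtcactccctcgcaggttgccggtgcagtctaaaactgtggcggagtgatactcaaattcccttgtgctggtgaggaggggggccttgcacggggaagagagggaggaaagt
COL4A6: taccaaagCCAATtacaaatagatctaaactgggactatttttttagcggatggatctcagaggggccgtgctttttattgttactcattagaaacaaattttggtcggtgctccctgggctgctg
The COL4A3 stretch is chr2:227164498-227164623 on the plus strand and the COL4A4 stretch chr2:227164206-227164331 on the minus strand. The COL4A5 stretch is chrX:108439712-108439837 on the plus strand and the COL4A6 stretch chrX:108439459-108439584 on the minus strand. The shared stretch holds 80.2% G and C, against a median of 59.5% in the 126 bases before all 27305 starts in the RefSeq table, of which 6.94% reach that share. On either strand it holds 1 CCAAT and 1 GGGCGG, which occur in 21.9% and 34.5% of those starts, and neither TATAAA (6.31% of starts) nor TGANTCA (3.47%). The COL4A3 stretch holds 2 GC boxes, the COL4A6 stretch 1 CCAAT box, and the COL4A4 and COL4A5 stretches none of the 4 motifs.

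COL4A1 encodes the alpha1 chain of type IV collagen, which pairs with the alpha2 chain in the basement membranes of most tissues. On the deposited log2 intensity scale, its 3 arrays read 10.71, 10.52 and 10.28 in WT_DMSO, 10.66, 10.15 and 10.23 in WT_AG494, and 10.31, 10.34 and 9.93 in WT_NOSCA. They read 8.27, 8.53 and 8.44 in APP_DMSO, 8.20, 8.29 and 8.26 in APP_AG494, and 8.06, 8.21 and 8.45 in APP_NOSCA. Every APP array lay below every WT array. The log2 difference between APP and WT, averaged over the 3 treatments that both lines received, was -2.05 (SE 0.10, adjusted p = 7.8e-12, limma with Benjamini-Hochberg adjustment over all genes), a 4.13-fold lower intensity. COL4A2, the alpha2 chain, read 11.30, 11.30 and 11.37 in WT_DMSO against 9.68, 10.08 and 9.85 in APP_DMSO. Its 9 APP arrays spanned 9.56 to 10.08 and its 9 WT arrays 11.09 to 11.37, with no overlap. The averaged log2 difference of COL4A2 was -1.48 (SE 0.06, adjusted p = 8.7e-13), or 2.79-fold lower.

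The other type IV genes did not pass. Their averaged log2 differences were -0.05 for COL4A3, 0.00 for COL4A4, -0.03 for COL4A5 and 0.08 for COL4A6, with adjusted p of 0.74, 1.0, 0.80 and 0.32. COL4A3, COL4A4 and COL4A5 were dim (a mean under 6.62 over all arrays), where a change in the RNA may not show. COL4A6 lay only just above that limit, with group means between 6.57 and 6.75, so the same may hold for it. Of its 7 probe sets, 3 shared the direction of its difference.

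**Figure D1:**
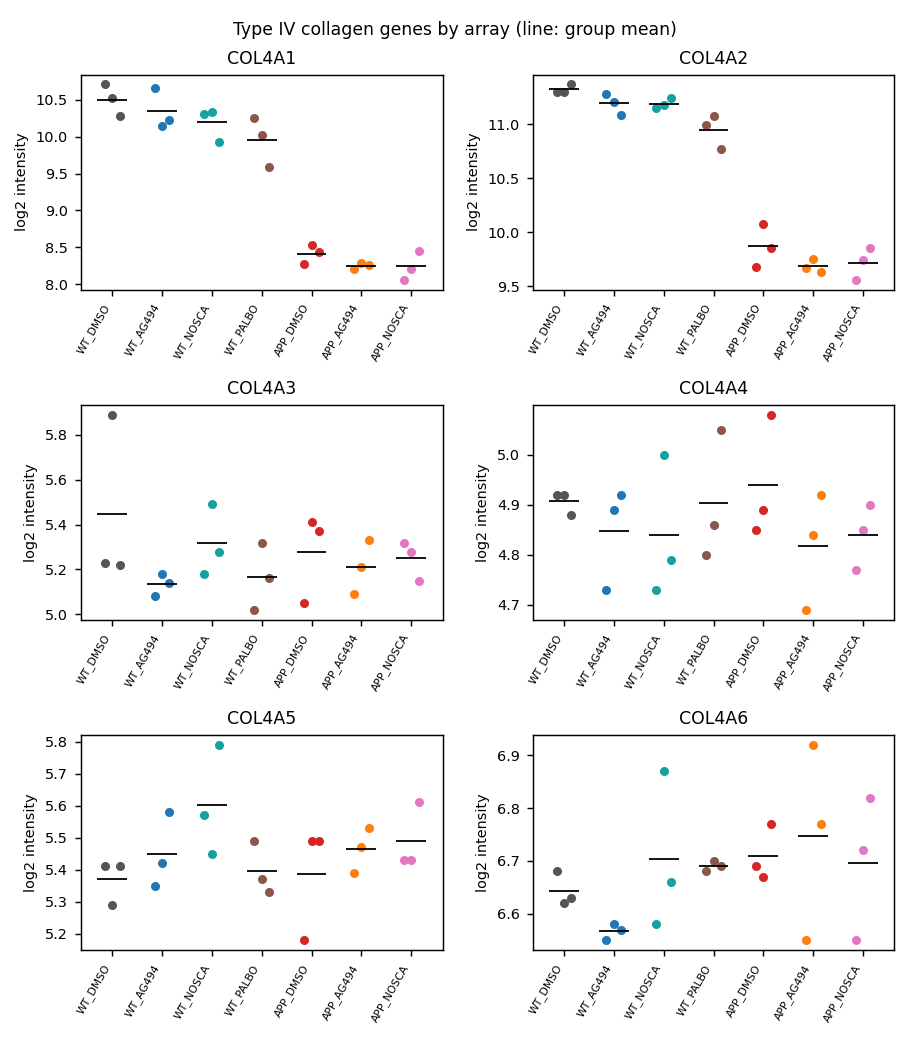
Log2 intensity (vertical axes, each panel with its own scale) of the 6 type IV collagen genes in the 7 groups, with 1 point per array and a line at the group mean. COL4A1 and COL4A2 sit lower in all 9 APP arrays than in any WT array, while the groups of COL4A3 to COL4A6 overlap.

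Over all 81 genes, 28 differed between APP and WT cells in the averaged comparison (34.6%), 8 higher and 20 lower in APP. Of all genes, 22.0% passed, 12.1% higher and 9.91% lower. The median log2 difference was -0.0091 over the 81 genes and 0.0233 over all genes. The arrays of the 9 APP and 9 WT samples did not overlap for 11 of the 81 genes, against 4.64% of all genes. The WT_PALBO arrays, which have no APP counterpart here, are not among these 9 WT arrays. The 11 were COL4A1, COL4A2, LOX, COL1A1, LAMA1, COL9A1, ITGB3 and COL18A1, lower in APP, and ITGA6, COL14A1 and LAMA5, higher in APP. Within a single treatment, 22 genes passed between APP_DMSO and WT_DMSO (8 higher and 14 lower, against 9.25% of all genes, 5.2% higher and 4.05% lower), 16 between APP_AG494 and WT_AG494 (4 higher and 12 lower, against 9.02% of all genes, 4.1% and 4.92%) and 16 between APP_NOSCA and WT_NOSCA (5 higher and 11 lower, against 7.2% of all genes, 3.56% and 3.65%). Of the 28 genes, 13 passed in all 3 of these comparisons, 23 passed in at least 1, and 25 had the same sign in all 3. The exceptions were COL16A1, LAMB1 and COL26A1. Without APP_DMSO replicate 3 the count under vehicle was 14. Of the 28, 6 were dim (COL13A1, COL14A1, COL22A1, COL23A1, ITGA4, LOX). The other 53 genes passed in no comparison of either genotypes or compounds in this fit, which had no block for the runs of arrays.

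**Figure D2:**
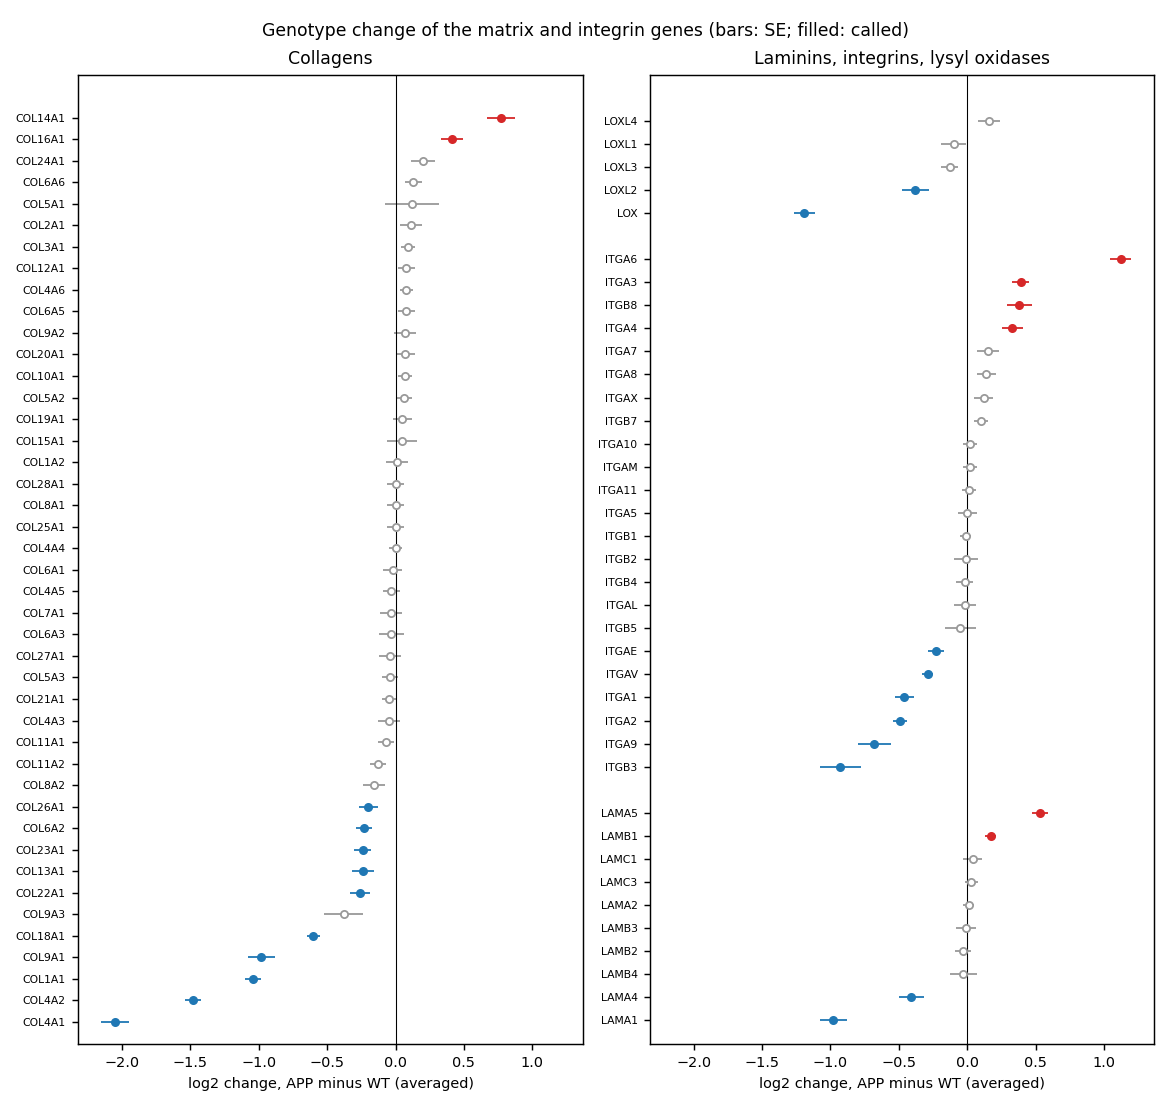
Log2 difference between APP and WT cells, averaged over vehicle, AG494 and NOSCA (horizontal axis), for the 43 collagens (left) and the laminins, integrins and lysyl oxidases (right), with the standard error as bars. Filled points passed the adjusted p threshold (red higher and blue lower in APP), and most open points lie close to 0 while COL4A1 and COL4A2 lie farthest to the left.

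Among the collagens outside type IV, 2 were higher and 8 lower in APP cells (12.1% and 9.91% of all genes). COL1A1, the alpha1 chain of type I collagen, the main fibrillar collagen of connective tissue, spanned 8.98 to 9.47 over the 9 APP arrays (median 9.22) and 10.05 to 10.44 over the 9 WT arrays (median 10.22). These APP arrays lay below these 9 WT arrays, by a mean log2 difference of -1.04 (SE 0.06, adjusted p = 1.5e-10). COL1A2, which supplies the alpha2 chain of the same trimer, read 5.52 to 6.09 in APP and 5.60 to 6.10 in WT arrays, was dim and did not pass. COL3A1, the type III chain, also did not pass, with group means from 13.2 to 13.43. COL1A1 was the 1 of 11 fibrillar collagens that passed in the fit without a block. With the run of arrays as a block (described below), COL3A1 (log2 difference 0.09, adjusted p = 0.013) and COL24A1 (0.20, adjusted p = 0.024) passed as well, higher in APP.

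Fibril-associated collagens sit on the surface of fibrils or in other matrix. Of these 10, COL9A1 and COL22A1 were lower and COL14A1 and COL16A1 higher in APP cells. COL9A1 read 5.69 to 6.66 in APP arrays (median 6.39) and 7.00 to 7.51 in WT arrays (median 7.27), a log2 difference of -0.98 (SE 0.10, adjusted p = 2.6e-07). Both groups were clearly apart, but 2 of the 4 probe sets of COL9A1 did not share this direction. COL14A1 was the collagen with the largest rise: 5.82 to 6.45 in APP arrays (median 6.26) against 5.03 to 5.77 in WT arrays (median 5.40), with no overlap. Its log2 difference was 0.77 (SE 0.10, adjusted p = 1.1e-05). The averaged log2 difference of COL16A1 was 0.41 (adjusted p = 0.0006), but it changed sign between treatments: 0.88 under vehicle and 0.50 under NOSCA, which passed, and -0.14 under AG494 (adjusted p = 0.67), which did not. The runs of arrays (described below) gave 0.55, 1.38 and 0.72 for COL16A1 under vehicle. COL22A1 fell by 0.26 (adjusted p = 0.013). COL9A3 passed only with the block (log2 difference -0.38, adjusted p = 0.0083).

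COL18A1, a basement membrane collagen whose end fragment is endostatin, read 8.11 to 8.47 in APP arrays (median 8.22) and 8.72 to 8.90 in WT arrays (median 8.83). The groups did not overlap and the log2 difference was -0.60 (SE 0.05, adjusted p = 1.6e-08). The membrane-spanning collagens COL13A1 and COL23A1 each fell by 0.24 on the log2 scale (adjusted p = 0.030 and 0.0092). COL6A2, a chain of the beaded filaments of type VI collagen, had an averaged log2 difference of -0.23 (adjusted p = 0.0075), which was -0.62 under vehicle (adjusted p = 0.00047), -0.03 under AG494 (0.94) and -0.05 under NOSCA (0.88). Under vehicle, 2 of the 4 probe sets of COL6A2 shared the direction and 1 passed. In the averaged comparison all 4 shared it and 2 passed. COL26A1 had an averaged log2 difference of -0.20 (adjusted p = 0.049) and passed under no single treatment, at 0.04 under vehicle, -0.39 under AG494 and -0.25 under NOSCA. With the block, COL26A1 passed under AG494 (adjusted p = 0.012). The titles number the arrays in 3 runs, each with 1 array of every group, and the log2 difference of COL13A1 was 0.02, -0.22 and -0.51 in them. COL13A1 lost its call without any of 6 arrays taken singly, APP_DMSO replicate 3 and WT_DMSO replicate 3 among them. COL26A1 lost its call without WT_DMSO replicate 1 and in most of the other single omissions.

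The laminin alpha chains that passed moved in different directions. LAMA1, the alpha1 chain of the laminin of early embryonic basement membranes, read 6.79 to 7.47 in APP arrays (median 7.19) and 7.85 to 8.77 in WT arrays (median 8.10). No APP array reached these 9 WT arrays, and the log2 difference was -0.98 (SE 0.10, adjusted p = 5.8e-07). LAMA5, an alpha chain of many adult basement membranes, moved the other way, at 9.87 to 10.17 in APP arrays (median 10.00) and 9.21 to 9.72 in WT arrays (median 9.51). Its log2 difference was 0.53 (SE 0.06, adjusted p = 2.9e-06), again with no overlap. LAMA4, the alpha4 chain, fell by 0.41 (adjusted p = 0.0019) on the log2 scale. LAMB1, the beta1 chain, had an averaged log2 difference of 0.17 (adjusted p = 0.0075), made up of 0.28 under vehicle and 0.26 under NOSCA, which passed, and -0.03 under AG494 (adjusted p = 0.89). LAMC1, the gamma1 chain that most laminins share, did not pass: its log2 difference was 0.04 (SE 0.07, adjusted p = 0.74) and its group means lay between 11.91 and 12.09. In all, 2 of 10 laminin genes were higher, 2 lower, and 6 did not pass, while 12.1% of all genes were higher and 9.91% lower.

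Of 23 integrin genes, 4 were higher and 6 lower in APP cells (12.1% and 9.91% of all genes). Of the 3 laminin-binding alpha subunits, 2 rose. ITGA6, the alpha6 subunit, read 10.42 to 10.98 in APP arrays (median 10.78) and 9.30 to 9.86 in WT arrays (median 9.64), with no overlap. Its log2 difference of 1.12 (SE 0.08, adjusted p = 1.8e-09) was the largest rise among the 81 genes. ITGA3, the alpha3 subunit, rose by 0.39 (adjusted p = 5.5e-05), and ITGA7, the alpha7 subunit, was 0.15 higher without passing (adjusted p = 0.22). The collagen-binding subunits ITGA1 and ITGA2 fell by 0.46 and 0.49 (adjusted p = 9.6e-05 and 1.2e-06), while ITGA10 and ITGA11 did not pass.

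ITGB3, the beta3 subunit that pairs with alphaV as a receptor for vitronectin, read 6.00 to 6.99 in APP arrays (median 6.71) and 7.09 to 8.22 in WT arrays (median 7.52). The groups did not overlap, and the log2 difference was -0.93 (SE 0.15, adjusted p = 9.5e-05). This rests on the brightest of 7 probe sets, of which 4 shared the direction and 1 passed. ITGAV, the alphaV subunit, fell by 0.29 (adjusted p = 2.9e-05). ITGA9, a receptor for tenascin C and osteopontin, read 7.72 to 8.54 in APP arrays (median 8.27) and 8.30 to 9.39 in WT arrays (median 8.84). These groups overlapped slightly, and the log2 difference was -0.68 (SE 0.12, adjusted p = 0.00042). ITGAE, the alphaE subunit, fell by 0.23 (adjusted p = 0.0082). ITGA4, the alpha4 subunit, and ITGB8, another partner of alphaV, rose by 0.33 and 0.38 (adjusted p = 0.0033 and 0.0042). ITGB1, the beta1 subunit that pairs with alpha1, alpha2, alpha3, alpha6 and others, read 13.14 to 13.22 as group means, and its log2 difference was -0.01 (SE 0.04, adjusted p = 0.86).

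Lysyl oxidases oxidise lysines of collagen and elastin so that chains become crosslinked. LOX read 5.43 to 5.84 in APP arrays (median 5.63) and 6.55 to 7.35 in WT arrays (median 6.75). All APP arrays were lower, with a log2 difference of -1.19 (SE 0.08, adjusted p = 3.1e-09), and all 6 probe sets of LOX shared the direction. LOXL2 fell by 0.38 (adjusted p = 0.0096), and LOXL1, LOXL3 and LOXL4 did not pass. LOXL2 passed under no single treatment without the block, at -0.49 under vehicle (adjusted p = 0.09), -0.55 under AG494 (0.055) and -0.09 under NOSCA (0.86). The call of LOXL2 was lost when its 4 probe sets were averaged (log2 difference -0.30).

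**Figure D3:**
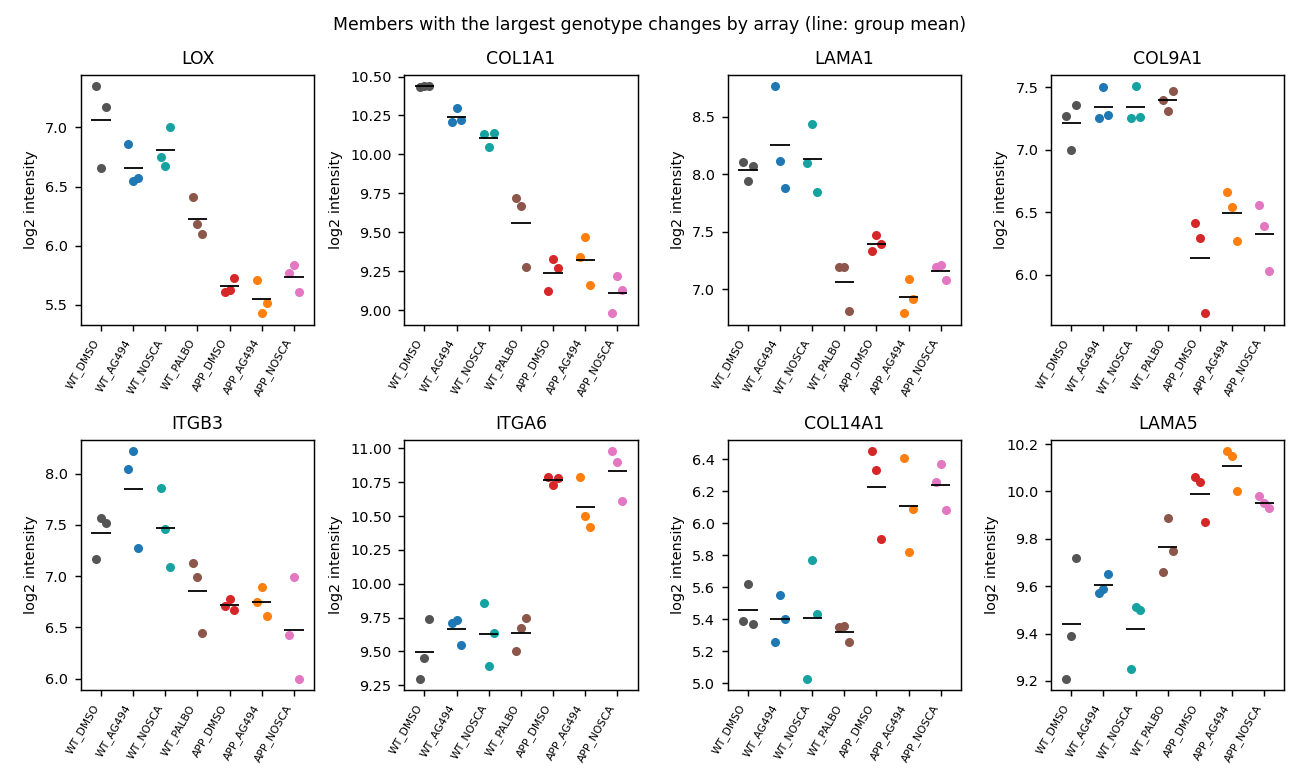
Log2 intensity (vertical axes, each panel with its own scale) of 8 further genes with large differences between the lines, by group, with 1 point per array and a line at the group mean. LOX, COL1A1, LAMA1, COL9A1 and ITGB3 are lower in the 9 APP arrays than in the 9 WT arrays of the same treatments, and ITGA6, COL14A1 and LAMA5 are higher; WT_PALBO lies below WT_DMSO on average for LOX, COL1A1, LAMA1 and ITGB3.

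**Figure D4:**
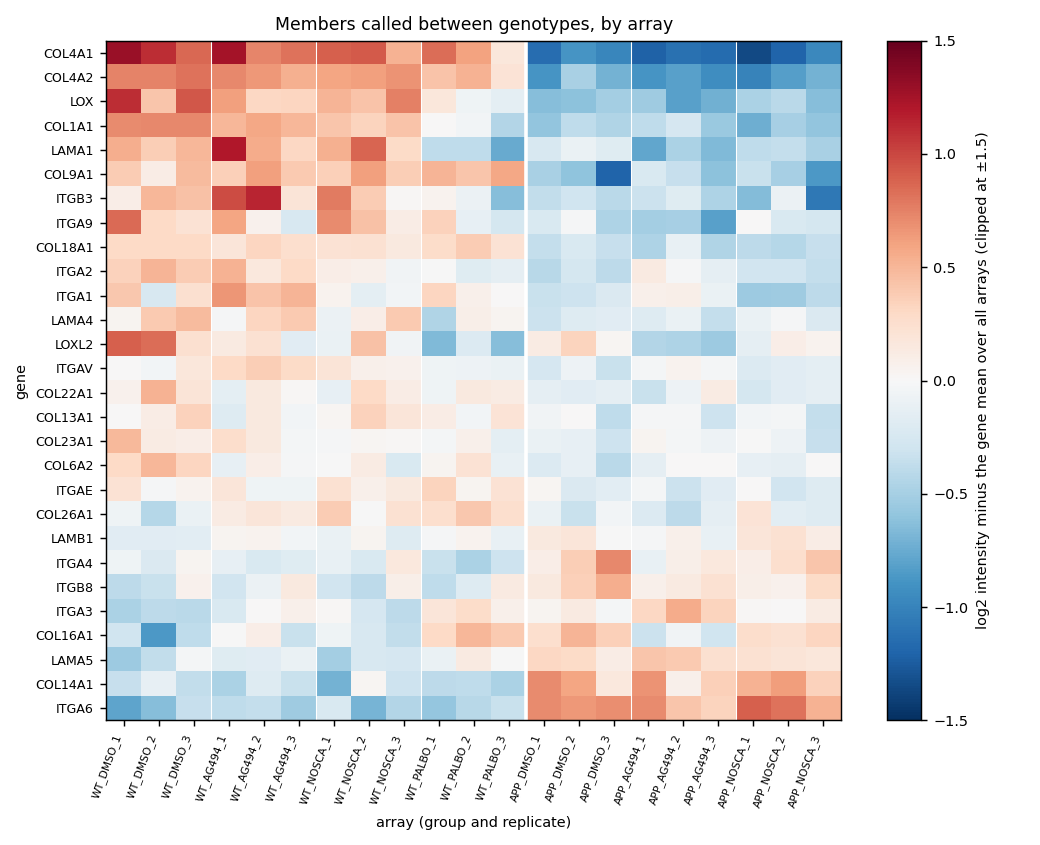
The 28 genes that differed between the lines (rows, from the largest fall to the largest rise) in all 21 arrays (columns), coloured by log2 intensity minus the gene's mean over all arrays, with colours clipped at ±1.5. The 9 WT arrays without PALBO contrast with the 9 APP arrays most clearly in the top and bottom rows, while the 3 PALBO arrays overlap with APP for LAMA1, COL1A1 and ITGB3, among others.

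Genes that act with these proteins were read from 6 lists. Among the 19 basement membrane partners, 2 were higher and 5 lower in APP cells in the averaged comparison, in which 12.1% of all genes were higher and 9.91% lower. SMOC1, a calcium-binding basement membrane protein, was 3.08 higher on the log2 scale (SE 0.16, adjusted p = 3e-11) and its relative SMOC2 fell by 1.60. FBLN2 (fibulin 2) fell by 0.47 and NTN4 (netrin 4) rose by 0.46. Of 26 measured genes of collagen synthesis and processing, 2 were higher and 6 lower. ADAMTS2, which cuts the amino-terminal propeptide from procollagen, fell by 2.40 (SE 0.18, adjusted p = 8.1e-09), and PCOLCE2, an enhancer of the enzyme that cuts the other end, by 0.72. Of 24 interstitial matrix proteins and integrin ligands, 2 were higher and 7 lower. The microfibril protein MFAP2 fell by 1.06, the proteoglycan VCAN (versican) by 0.77, ELN (elastin) by 1.16 and the integrin ligand CCN1 by 0.95, where CCN1 had the highest adjusted p of these 4, 3.3e-08.

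Inside the cell, 3 of 25 genes of the adhesion complex were higher and 4 lower in the same comparison (12.1% and 9.91% of all genes). NEDD9, a docking protein of the Cas family, fell by 3.17 (SE 0.13, adjusted p = 1.4e-12), and the kinase SRC by 0.35. LIMS2 (PINCH2) rose by 0.36. Of 14 other matrix receptors, 2 were higher and 2 lower: DDR1, a collagen-binding receptor kinase, rose by 0.37 and CD44, a hyaluronan receptor, by 0.30, while the syndecans SDC1 and SDC2 fell by 0.38 and 0.51. Of 27 matrix proteases and inhibitors, 3 were higher and 9 lower, ADAMTS9 (-0.82), ADAMTS4 (-0.70) and PLAU (-0.41) among the latter and MMP11 (0.68) among the former. These counts are a description and set no list apart from other genes. The median log2 differences of the 6 lists lay between -0.122 and 0.0287, against 0.0233 over all genes.

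Markers were read to see which cells the arrays held. All 10 measured noradrenergic markers of neuroblastoma lay above the limit of dim genes, with an array mean over the list of 11.81 to 12.21 in all groups. That mean hides members that moved in opposite directions. From WT_DMSO to APP_DMSO the group means of CHGA (12.31 to 12.90) and CHGB (12.11 to 12.74) were higher. Those of TH (8.94 to 8.09), GATA2 (12.42 to 12.09) and DBH (13.29 to 12.98) were lower. Of 11 markers of the mesenchymal neuroblastoma state, 7 lay above the limit of dim genes. The array mean of that list was 7.79 to 7.93 in WT_DMSO, 7.57 to 7.76 in APP_DMSO and 7.42 to 7.5 in WT_PALBO, which did not overlap with WT_DMSO in either case. It was 7.75 to 7.84 in WT_AG494 and 7.63 to 7.72 in APP_AG494, without overlap, and 7.64 to 7.8 in WT_NOSCA and 7.6 to 7.66 in APP_NOSCA, with overlap. In APP against WT, 4 of the 11 fell, SNAI2 (-1.11) and VIM (-0.33) among them, and TBX18 (0.41) rose. Of all genes, 9.91% were lower and 12.1% higher. Fibroblast markers, 6 of 8 above it, split: DCN (1.19) and FAP (0.54) rose and THY1 (-0.71) and PDGFRA (-0.62) fell, and the array mean was 8.3 to 8.6 in WT_DMSO and 8.46 to 8.62 in APP_DMSO. Of the Schwann, endothelial and leukocyte markers, 2 of 5, 3 of 8 and 3 of 7 lay above it. Those above it were SOX10 and S100B (Schwann), CDH5, VWF and TIE1 (endothelial) and CD68, LCP1 and CORO1A (leukocyte), and those that were dim included FOXD3 and CDH19 (Schwann), PECAM1 (endothelial) and PTPRC and CD3E (leukocyte). PRRX1, of the mesenchymal list, was also dim. S100B, of the Schwann list, fell by 0.99. The part of the mesenchymal markers in the changes of matrix genes was not tested. In such bulk RNA, fewer cells of a kind and less RNA per cell cannot be told apart.

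PALBO in WT cells changed 9 of the 81 genes (11.1%, against 6.98% of all genes), 3 higher and 6 lower than vehicle (3.11% and 3.87% of all genes). With the run of arrays as a block, 15 genes passed (4 higher and 11 lower), against 15.1% of all genes. The median log2 difference was -0.031 over the 81 genes and 0.0037 over all genes. LOXL2 read 9.26, 9.72 and 9.29 in WT_PALBO and 10.82, 10.76 and 10.17 in WT_DMSO. All 3 PALBO arrays were lower, and the log2 difference was -1.16 (SE 0.17, adjusted p = 0.00034).

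LAMA1 read 7.19, 7.19 and 6.81 under PALBO and 8.11, 7.94 and 8.07 under vehicle, a log2 difference of -0.98 (SE 0.17, adjusted p = 0.0015) with no overlap. COL1A1 read 9.72, 9.67 and 9.28 under PALBO and 10.43, 10.44 and 10.44 under vehicle, a log2 difference of -0.88 (SE 0.10, adjusted p = 3.3e-05), also with no overlap. COL16A1, a fibril-associated collagen, moved up: it read 8.25, 8.44 and 8.34 under PALBO and 7.65, 7.08 and 7.57 under vehicle. Its log2 difference was 0.91 (SE 0.13, adjusted p = 0.00034), and 0.60, 1.36 and 0.77 in the 3 runs. LOX fell by 0.83, ITGA2 by 0.52 and COL4A2 by 0.38, while ITGA3 rose by 0.60 and COL26A1 by 0.50, with adjusted p between 0.00091 (ITGA3) and 0.027 (COL4A2). COL4A1 fell short of the threshold (log2 difference -0.55, adjusted p = 0.054) and passed with the block (adjusted p = 0.025). COL4A2 lost its call without WT_PALBO replicate 3 (-0.29) and in 4 other single omissions, COL26A1 without WT_DMSO replicate 2 (0.39) or WT_PALBO replicate 2, and ITGA2 when its 2 probe sets were averaged (-0.25). Only 1 of the 2 probe sets of ITGA2 fell under PALBO. ITGA6, COL14A1 and COL9A1, which differed between the lines, did not pass under PALBO.

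The values of the same 9 genes in the genotype comparisons stand beside these. In the averaged comparison, which includes the WT_DMSO arrays that PALBO was set against, the log2 differences were -1.04 for COL1A1, -1.19 for LOX, -0.98 for LAMA1, -0.49 for ITGA2, -1.48 for COL4A2, -0.38 for LOXL2, 0.41 for COL16A1, 0.39 for ITGA3 and -0.20 for COL26A1. The comparison of APP_AG494 with WT_AG494 shares none, and there the log2 differences were -0.92 for COL1A1, -1.11 for LOX, -1.33 for LAMA1, -0.33 for ITGA2, -1.51 for COL4A2 and 0.45 for ITGA3, which passed, and -0.55 for LOXL2, -0.14 for COL16A1 and -0.39 for COL26A1, which did not. With the block, LOXL2 (adjusted p = 0.0049) and COL26A1 (adjusted p = 0.012) passed in that comparison too. Set against all 9 APP arrays, the 3 PALBO arrays lay apart for COL4A2 (10.77 to 11.08, APP up to 10.08), LOX (6.10 to 6.41, APP up to 5.84) and COL26A1 (7.43 to 7.59, APP up to 7.39). They overlapped with the APP range for the other 6 genes. LAMA1, at 6.81 to 7.19 under PALBO, lay wholly within the APP range of 6.79 to 7.47. ITGA2, ITGA3 and COL16A1 also lay within their APP ranges, which pool vehicle, AG494 and NOSCA. The group mean of ITGA2 was 7.35 under PALBO, near APP_AG494 (7.45) and above APP_DMSO (7.1) and APP_NOSCA (7.15). COL1A1 and LOXL2 overlapped in part, COL1A1 at 9.28 to 9.72 under PALBO and 8.98 to 9.47 in APP arrays. For LOXL2, the PALBO arrays lay below all APP_DMSO arrays. Its group mean was 9.42 under PALBO, near APP_AG494 (9.44) and below APP_DMSO (10.09) and APP_NOSCA (9.93).

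**Figure D5:**
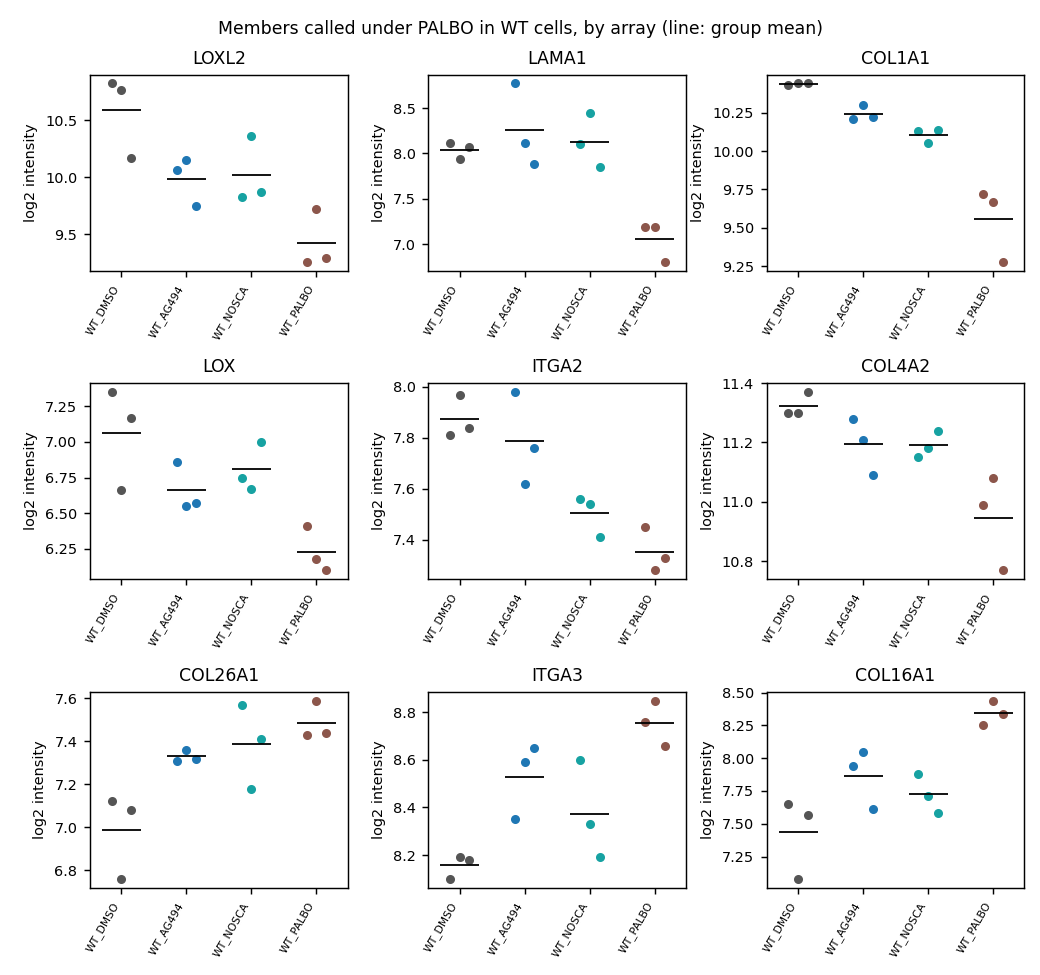
Log2 intensity (vertical axes, each panel with its own scale) in WT cells of the 9 genes that differed between PALBO and vehicle, with 1 point per array and a line at the group mean for vehicle, AG494, NOSCA and PALBO. LOXL2, LAMA1, COL1A1, LOX, ITGA2 and COL4A2 are lowest and COL26A1, ITGA3 and COL16A1 highest, by group mean, under PALBO.

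Set against the other compounds in WT cells, PALBO differed from AG494 in 5 genes, all lower, against 3.25% of all genes (1.2% higher and 2.05% lower), and in 12 with the block (8.7% of all genes). LAMA1 read 8.77, 8.12 and 7.88 under AG494, all above its PALBO arrays, and the log2 difference was -1.19 (SE 0.17, adjusted p = 0.00061). ITGB3 read 7.13, 6.99 and 6.44 under PALBO and 8.05, 8.22 and 7.27 under AG494, a log2 difference of -0.99 (SE 0.25, adjusted p = 0.036). COL1A1 (-0.69), ITGA2 (-0.43) and ITGAV (-0.40) were the others. The call of ITGB3 was lost without any of 4 arrays, such as WT_PALBO replicate 3 (-0.79), and when its probe sets were averaged (-0.28), and the count was 3 without WT_AG494 replicate 1 or WT_PALBO replicate 3. PALBO differed from NOSCA in 5 genes, against 3.23% of all genes (1.13% higher and 2.1% lower), and in 9 with the block (7.23%): LAMA1 (-1.07), LOX (-0.58) and COL1A1 (-0.55) were lower and COL16A1 (0.62) and ITGA3 (0.39) higher under PALBO. That count was 2 without WT_NOSCA replicate 2 or WT_NOSCA replicate 3, and 3 without WT_PALBO replicate 2 or WT_PALBO replicate 3. LAMA1 and COL1A1 passed in all 3 comparisons of PALBO, which share the WT_PALBO arrays.

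Among the 6 lists, PALBO lowered 4 of 24 interstitial matrix proteins and ligands, FN1 (fibronectin, -0.43), VCAN (-0.36), SPP1 (osteopontin, -0.95) and CCN1 (-0.51), and 3 of 26 genes of collagen synthesis, TMEM38B (-0.51), ADAMTS3 (-0.65) and FKBP14 (-0.36), with none higher in either, while 3.87% of all genes were lower and 3.11% higher. In the other 4 lists, whose sizes are given above, NID2 (-0.55), NEDD9 (-0.75) and SDC1 (-0.40) fell and LIMS2 (0.56), MCAM (0.51) and MMP11 (0.40) rose. As for the genotypes, these calls are a description and set no list apart from other genes. Of the 11 mesenchymal markers, SOX9 (-1.41), YAP1 (-0.93) and VIM (-0.41) fell, and of the 10 noradrenergic markers, CHGA (0.49), CHGB (0.68) and ISL1 (0.43) rose. The group mean of TH was lower under PALBO than under vehicle (8.61 against 8.94), as were those of GATA3 and HAND2 by less. The group means of PHOX2A, GATA2, DBH and STMN2 were slightly higher under PALBO. S100B rose by 0.95.

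AG494 in APP cells changed 3 of the 81 genes (3.7%, against 4.75% of all genes), a share near the background, 1 higher and 2 lower (1.99% and 2.76% of all genes). With the block, 11 passed (6 higher and 5 lower), against 11.8% of all genes. LOXL2 read 9.48, 9.46 and 9.38 in APP_AG494 and 10.05, 10.26 and 9.96 in APP_DMSO, a log2 difference of -0.65 (SE 0.17, adjusted p = 0.034) with no overlap. COL16A1 read 7.63, 7.89 and 7.65 against 8.20, 8.46 and 8.30, a log2 difference of -0.60 (SE 0.13, adjusted p = 0.012), and ITGA2 read 7.60, 7.44 and 7.32 against 7.04, 7.20 and 7.07, a log2 difference of 0.35 (SE 0.09, adjusted p = 0.032). The groups did not overlap for either gene. Without APP_AG494 replicate 1 the count was 0, and it was 1 without APP_AG494 replicate 2, APP_AG494 replicate 3 or APP_DMSO replicate 3. COL4A1 and COL4A2 stayed at the APP level under AG494, with all 3 arrays of each below every WT array.

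Around these genes, AG494 in APP cells raised 3 of 26 genes of collagen synthesis, SERPINH1 (the collagen chaperone HSP47, 0.37), PPIB (0.22) and TMEM38B (0.31), and 3 of 24 interstitial matrix proteins and ligands, EMILIN1 (0.41), VCAN (0.36) and CCN1 (0.50), with none lower in either, while 1.99% of all genes were higher and 2.76% lower. SMOC1, the basement membrane protein that was higher in APP cells, fell by 1.67 (SE 0.27, adjusted p = 0.0011). SPARC, SDC4, HTRA1 and MMP11 rose, SDC1 and ADAMTS5 fell, and no gene of the adhesion complex passed. The APP_DMSO arrays enter both this comparison and that of the genotypes under vehicle.

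In WT cells AG494 changed none of the 81 genes by limma, against 0.254% of all genes. At an unadjusted p under 0.05 there were 12, and with the block 2 passed, LOXL2 (-0.59, adjusted p = 0.020) and COL6A2 (-0.39, adjusted p = 0.022), against 1.97% of all genes. The lowest p belonged to ITGAV, which read 10.07, 10.14 and 10.06 under AG494 and 9.78, 9.73 and 9.94 under vehicle. Its arrays did not overlap, but the log2 difference of 0.27 (SE 0.07) had an adjusted p of 0.16. COL6A2 was next, at 8.54, 8.76 and 8.64 against 8.96, 9.16 and 8.98 (adjusted p = 0.17). Only 1 of the 4 probe sets of COL6A2 shared its direction, under AG494 as under NOSCA in WT cells. Without WT_DMSO replicate 3 the count was 1. NOSCA changed none in WT cells (0.0165% of all genes, 12 at an unadjusted p under 0.05, 1 with the block, COL6A2 at -0.41, against 0.419% of all genes) and none in APP cells (0.0% of all genes, 2 at an unadjusted p under 0.05, 0 with the block against 0.0276% of all genes). In WT cells the lowest p belonged to ITGA2 and COL6A2, both with an adjusted p of 0.26, and ITGA2 read 7.56, 7.54 and 7.41 under NOSCA. In APP cells it belonged to LAMC3, at 5.81, 5.80 and 5.98 under NOSCA and 5.60, 5.73 and 5.49 under vehicle (log2 difference 0.25, adjusted p = 0.81), and COL10A1 (-0.23, adjusted p = 0.85). COL10A1 and LAMC3 were dim.

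Whether a compound acted differently in the lines was tested as the interaction of compound and genotype. None of the 81 genes passed for AG494, against 0.0386% of all genes, with 10 at an unadjusted p under 0.05 and 4 with the block (1.26% of all genes). None passed for NOSCA, against 0.0% of all genes, with 3 at an unadjusted p under 0.05 and 0 with the block. The lowest p for AG494 belonged to COL16A1 (-1.03, SE 0.19, adjusted p = 0.069) and COL6A2 (0.59, SE 0.15, adjusted p = 0.17), and for NOSCA to COL6A2 (0.57, adjusted p = 0.88) and ITGA2 (0.41, adjusted p = 0.94). COL16A1 passed without WT_DMSO replicate 1, WT_DMSO replicate 3 or WT_AG494 replicate 3, which made the count 1. All of these omissions kept WT_DMSO replicate 2, which read lowest for COL16A1. The change of COL16A1 under AG494 in WT cells was 0.28, 0.97 and 0.04 in the 3 runs. The values of the AG494 interaction are log2 differences of differences, positive where the change under AG494 was higher in APP than in WT cells.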

How the data were processed

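Total RNA, 25 ng per array, was amplified and hybridised to PrimeView arrays. The authors deposited log2 intensities made with RMA (affy), per the submitters' processing notes; versions are not given in the sources used here. They ran from 4.143 to 14.37, with array medians from 7.879 to 8.031. No counts lie behind such values, and precision is limited by the number of arrays.

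Of 49372 probe sets, 79 controls were left out, 44988 had 1 symbol, 1832 had several and 2473 had none in the annotation table used. Of those with 1 symbol, 44961 were matched to RefSeq genes through Entrez IDs. Each gene was represented by its probe set of highest mean (18132 genes, no filter). The 81 genes had 232 probe sets, and 56 genes had more than 1. Levels of different probe sets were not compared. Sequences were taken from RefSeq (GRCh38.p14), which had a promoter entry for 58 of the 81 genes.

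All 21 arrays entered 1 limma 3.58.1 fit in R 4.3.3 (lmFit and eBayes) with 1 coefficient per group, 14 residual and 4.27 prior degrees of freedom. Two-sided p-values were adjusted (Benjamini-Hochberg) over all genes within each of 13 comparisons, with a threshold of 0.05. The fit was also run on simulated data with independent noise in each array. That noise lacked the correlation within runs described below, so it could not test the fit under such correlation. Replicates were numbered in the order of submission.

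The design names 3 independent experiments and does not say which arrays belong to which. Title numbers fall into 3 runs with 1 array of every group each. Deviations from the group means correlated at 0.226 to 0.685 for the 63 array pairs of the same run. They correlated at -0.529 to 0.0889 for the 126 pairs of different run and group. The run was therefore used as the replicate block. Its result stands beside each count that it moved by over 1.5 times and beside some of the single genes whose call it changed. If the 3 arrays of a group do not come from separate cultures, p-values measure only the spread between these samples.

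Genes are named by rule: values per array for the 12 largest genotype changes and the largest called changes per compound, the lowest 2 p where none passed, and up to 4 called genes of lowest p per list. The members and lists were chosen with earlier results of these data known. Alternatives covered the block, the choice of probe set, a dim filter, quantile and median scaling, the prior, array weights, the samples fitted, a 1.5-fold minimum and leaving out each array.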

Additional observations from a re-analysis of the deposited data

Results flagged for a closer look

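With the run of arrays as a block, 4 of the 81 genes differed between APP and WT cells in their change under AG494, against 1.26% of all genes; none did without the block. The log2 difference of the changes (APP minus WT) was -1.03 for COL16A1, whose adjusted p was 0.016 with the block and 0.069 without. COL16A1 read 7.94, 8.05 and 7.61 in WT_AG494 and 7.65, 7.08 and 7.57 in WT_DMSO, against a fall in APP cells. It was 0.69 for ITGB5, an alphaV partner (0.016 and 0.53), 0.59 for COL6A2 (0.022 and 0.17) and -0.31 for LAMB1 (0.042 and 0.37). ITGB5 read 10.10, 10.11 and 9.88 in APP_AG494 and 9.62, 9.48 and 9.21 in APP_DMSO, while WT_AG494 (9.94, 9.78 and 9.38) overlapped with WT_DMSO (10.22, 9.78 and 9.38). Of the 4 probe sets of COL6A2, 2 shared its direction.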

How the results depend on the processing

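The averaged genotype count of 28 was 11 with a 1.5-fold minimum, 22 without dim genes (a mean under 6.62) and 26 to 29 with single arrays left out. With the 1.5-fold minimum the other counts were 13 for the genotypes under vehicle, 10 under NOSCA, 3 for PALBO against AG494 and 2 for PALBO against NOSCA. With only the groups compared in the fit, these were 14 (vehicle), 3 (PALBO against AG494) and 2 (PALBO against NOSCA). The replicate block gave 2 genes for AG494 and 1 for NOSCA in WT cells, 15 for PALBO, 11 for AG494 in APP cells, 4 for the AG494 interaction, 12 for PALBO against AG494 and 9 for PALBO against NOSCA. It kept every call made without it in the 13 comparisons, and moved no genotype count by over 1.5 times. Averaging the probe sets of a gene gave 1 for AG494 in APP cells and 1 for the AG494 interaction, array weights gave 7 and 1, and a second quantile normalisation gave 1 for the interaction. Leaving out single arrays gave 14 to 19 (genotypes under vehicle), 12 to 16 (under AG494), 11 to 14 (under NOSCA), 7 to 11 (PALBO), 0 to 3 (AG494 in APP cells), 0 to 1 (AG494 in WT cells and its interaction), 3 to 5 (PALBO against AG494) and 2 to 4 (PALBO against NOSCA). The cause of these shifts was not tested. Of 2052 single-gene values under an alternative, 1852 kept direction and side of the threshold, 190 kept the direction and lost the call, 10 gained one and 0 reversed. These values cover only part of the 81 genes in each comparison, mostly genes already called, so the 10 do not count every call gained. With the block, 4 of them gained a call, while the count over the 81 genes under vehicle alone rose from 22 to 28 between the genotypes. Scaling moved the median of all genes by less than 0.1. With 3 arrays per group and no doses, small changes and dose effects were out of reach, and 40 of the 81 genes were dim.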
